A study of Mus musculus with 15 samples.

Results

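The genes described here encode the enzymes, membrane proteins and proton pump of the lysosome, the acidic compartment in which cells break down protein, sugar chains and lipid. They were chosen as a list of 37 gene symbols, and a probe set annotated to a symbol on the list was taken as its measurement. Of the 37 genes, 35 were measured among 21439 genes in all, each by 1 probe set. The 35 comprise 21 hydrolases and activators (11 proteases, 6 glycosidases and 4 genes of lipid breakdown), 4 membrane proteins and 10 genes of the proton pump. Tfeb, the transcription factor that drives many lysosomal genes, and Glb1, the lysosomal beta-galactosidase, were not analysed here, the first because no probe set was listed for it and the second because its probe set carries the symbol of another gene as well.

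Whole adrenal glands came from wild-type male C57BL/6J mice that were 6 weeks old by their labels. The synthetic glucocorticoid dexamethasone, which shuts off pituitary ACTH and makes the steroid-producing cortex shrink, was given in the drinking water for 14 days. There were 4 control arrays from mice before the drug, 3 withdrawal arrays from the end of treatment, 4 from 3 days after the drug was stopped (day 3) and 4 from 7 days after it (day 7). RNA of each sample, called a biological replicate in its title, was hybridised to a separate one-colour array. There were no arrays of untreated mice from the later times, so treatment and the days that passed cannot be told apart. The labels give the same age for every group, so they do not show how age at harvest differed between groups. Levels are the authors' normalized log2 values, on which a difference of 1 is a doubling, and they can be compared between arrays for 1 gene but not between genes.

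Lysosomal hydrolases are made in the secretory pathway, carried to the compartment mostly by mannose 6-phosphate receptors, and work only in acid. The acid is made by the V-ATPase, a rotary pump whose V1 sector burns ATP in the cytosol and whose V0 sector lets protons through the membrane. Every cell has lysosomes, but macrophages, which engulf dead cells and debris, carry many of them, while cortex cells use theirs to release cholesterol from imported lipoproteins for steroid synthesis.

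The arrays resembled each other closely within groups, with a mean correlation over genes of 0.987 to 0.991, and their medians lay between 1.55 and 1.64. Levels around or below these medians are called near the floor of the arrays. The medians are not a strict limit, since the lowest single value was -0.19. The cortex genes that define the tissue were present: Cyp11b1, the last enzyme of corticosterone synthesis, averaged 9.07 at withdrawal and 9.79 in control, and Star, which brings cholesterol into mitochondria, averaged 10.55 at withdrawal and 10.91 in control. Of 11 cortex genes measured, 7 fell and 1 rose (Cyp11b2, aldosterone synthase) at withdrawal relative to control, in limma's test across all genes with Benjamini-Hochberg adjustment and a threshold of 0.05, the test used for every count that follows. In a whole gland, fewer cells of a type and less RNA per cell cannot be told apart.

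At withdrawal the lysosomal genes did not move as 1 block. Of the 35 measured, 8 rose, 2 fell and 25 did not pass the test against control. Over all genes, 2.49% were called higher and 1.81% lower in this comparison. Every withdrawal array was above every control array for 15 of the 35 genes and below for 2, against 8.15% and 6.94% of all genes, and 14 of the 35 had an unadjusted p under 0.05, against 17% of all genes. All 8 that rose were hydrolases or their activators, which makes 8 of 21, and cathepsin S (Ctss) rose the most. Both genes that fell encode V1 subunits of the proton pump, and of the 4 membrane proteins 0 passed in either direction. The median difference of the 35 genes was 0.17, against -0.01 over all genes, and it was 0.27 for the hydrolases and -0.04 for the pump. The withdrawal mean was the highest of the 4 groups for 20 of the 35 genes (57.1%), for 16 of the 21 hydrolases and for 2 of the 10 pump genes, while over all genes it was the highest for 30.8%.

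**Figure D1:**
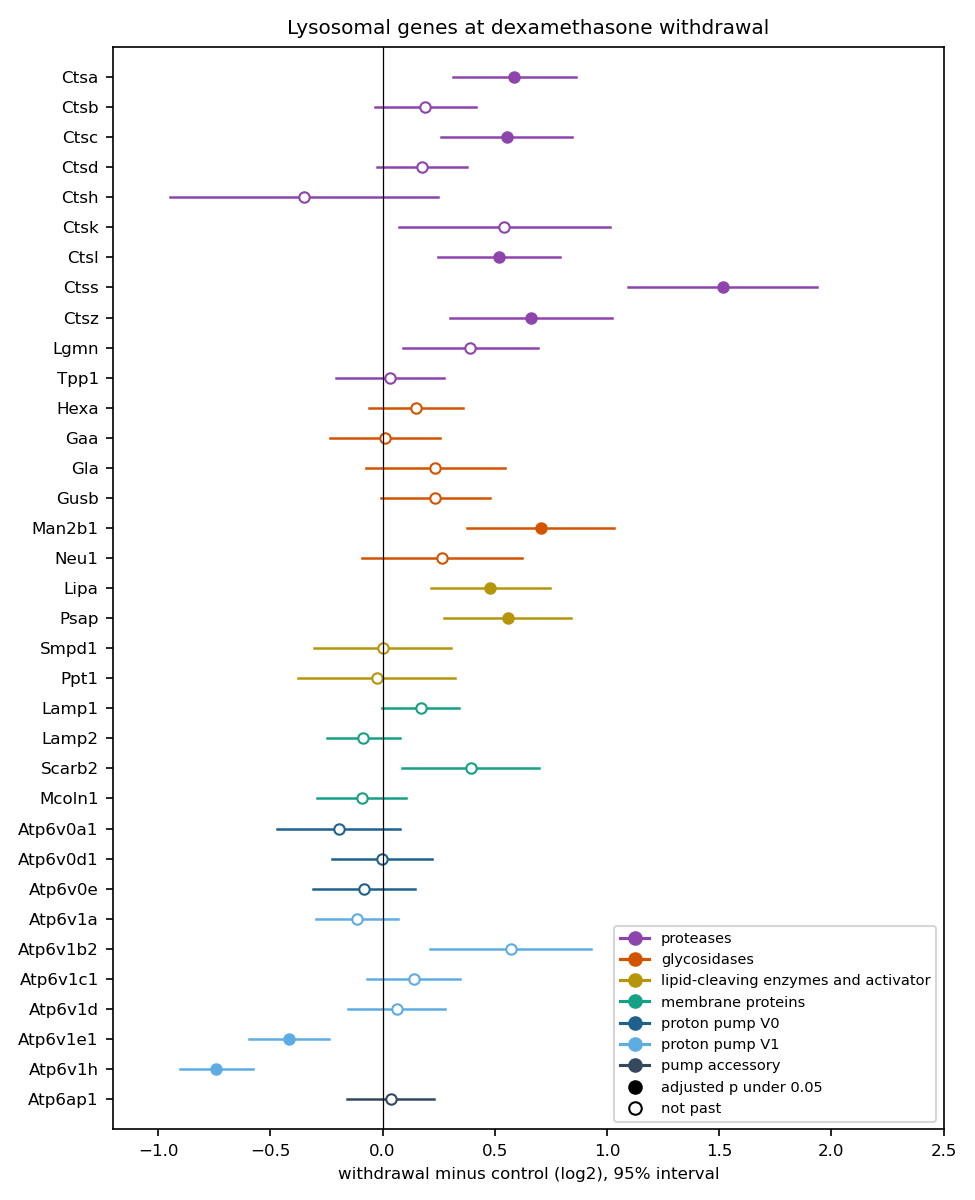
Withdrawal minus control for each of the 35 lysosomal genes on the log2 scale (x axis), by gene (y axis, grouped by role), with the 95% interval of the model as a bar and filled points for genes with an adjusted p under 0.05. The filled points right of 0 are 8 hydrolases or activators led by Ctss at 1.52, and the filled points left of 0 are Atp6v1e1 at -0.42 and Atp6v1h at -0.74.

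The proteases held most of the rise, with 5 of 11 higher, 0 lower and a median difference of 0.52. Ctss, the cysteine protease that trims the MHC class II invariant chain in antigen-presenting cells, stood at 9.41, 9.90 and 9.17 on the withdrawal arrays and at 7.87, 8.03, 7.96 and 8.05 on the control arrays. The groups were far apart, and the difference was 1.52 ± 0.20 (log2 ± SE), or 2.86-fold, with an adjusted p of 0.000462. Ctsz, a carboxypeptidase, stood at 8.12, 8.32 and 7.49 at withdrawal and at 7.30, 7.09, 7.44 and 7.44 in control. Here the third withdrawal array lay only just above the controls, and the difference was 0.66 ± 0.17 (adjusted p = 0.0386).

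Ctsa, a carboxypeptidase that also shields beta-galactosidase and neuraminidase from breakdown, stood at 8.67, 8.75 and 8.40 at withdrawal, against 8.04, 8.07, 7.97 and 8.02 in control, where the arrays were tightly grouped. It rose by 0.59 ± 0.13, or 1.50-fold (adjusted p = 0.0172). Ctsc, the dipeptidyl peptidase that activates the serine proteases of immune cell granules, stood at 7.28, 7.42 and 7.34 at withdrawal and at 6.90, 6.86, 6.80 and 6.61 in control. Its groups did not overlap, and it rose by 0.55 ± 0.14 (adjusted p = 0.0329). Ctsl, a cysteine endopeptidase found in most cell types, stood at 8.52, 8.73 and 8.52 at withdrawal and at 8.27, 7.89, 8.25 and 7.89 in control. The control arrays fell into a higher and a lower pair, all below the withdrawal arrays, and the difference was 0.52 ± 0.13 (adjusted p = 0.032).

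The other 6 proteases did not pass the test. Ctsk, the collagen-cleaving cathepsin of osteoclasts, had a difference of 0.54 ± 0.22 (adjusted p = 0.214). Every withdrawal array was above every control array, but only just, since the lowest withdrawal array and the highest control array both round to 3.46. Lgmn, the asparaginyl endopeptidase that processes other cathepsins, had 0.39 ± 0.14 (adjusted p = 0.152), also without overlap. The general proteases Ctsb and Ctsd had 0.19 ± 0.11 and 0.17 ± 0.09. Tpp1, a tripeptidyl peptidase, had 0.03, with a 95% interval from -0.21 to 0.27. The sole protease with a negative difference was Ctsh, an aminopeptidase, at -0.35 ± 0.28 (adjusted p = 0.592).

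Among the 6 glycosidases only Man2b1, the alpha-mannosidase that trims sugar chains of glycoproteins, passed. It stood at 7.91, 8.20 and 7.65 at withdrawal and at 7.11, 7.38, 7.30 and 7.07 in control, without overlap, and rose by 0.70 ± 0.15, or 1.63-fold (adjusted p = 0.0169). The other 5 had differences from 0.01 to 0.27, none of which passed. The sialidase Neu1 had the largest of these at 0.27, followed by beta-glucuronidase (Gusb) at 0.24, alpha-galactosidase (Gla) at 0.23 and the hexosaminidase alpha chain (Hexa) at 0.15. Gaa, which breaks down glycogen, had 0.01, with an interval from -0.23 to 0.26.

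Of the 4 genes of lipid breakdown, 2 rose. Psap, the precursor of the saposins that present sphingolipids to their enzymes, stood at 9.50, 9.76 and 9.48 at withdrawal and at 8.99, 9.03, 9.18 and 8.90 in control. It rose by 0.56 ± 0.13, or 1.47-fold (adjusted p = 0.0282). Lipa, the acid lipase that frees cholesterol from lipoprotein esters, stood at 8.38, 8.50 and 8.14 at withdrawal, against 8.01, 7.86, 7.86 and 7.70 in control. It rose by 0.48 ± 0.12, or 1.40-fold (adjusted p = 0.0394). The acid sphingomyelinase Smpd1 had 0.00 (interval -0.30 to 0.31) and the thioesterase Ppt1 -0.03 (interval -0.38 to 0.32), so neither showed a shift of the size seen for Ctss.

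The membrane proteins had a median difference of 0.04. Lamp1, a heavily glycosylated protein that lines the lysosomal membrane, stood at 9.74, 9.75 and 9.80 at withdrawal and at 9.57, 9.54, 9.68 and 9.60 in control. The groups did not overlap, but the shift was small, at 0.17 ± 0.08, and did not pass (adjusted p = 0.297). Its relative Lamp2 had -0.08, with an interval from -0.25 to 0.08. Scarb2, which carries glucocerebrosidase to the lysosome, had 0.39 ± 0.14 (adjusted p = 0.158), and the calcium channel Mcoln1 had -0.09 ± 0.09.

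Of the 10 proton pump genes 2 fell, 0 rose and 8 did not pass. Atp6v1h, the H subunit that regulates ATP use by V1, stood at 7.77, 7.85 and 7.78 on the withdrawal arrays and at 8.55, 8.55, 8.59 and 8.48 on the control arrays. Both groups were tight and far apart, and it fell by 0.74 on the log2 scale (SE 0.08), a level 1.67-fold lower, with an adjusted p of 9.18e-05, the smallest of the 35 genes. Atp6v1e1, part of the stalk that holds the pump's head still, stood at 8.96, 8.88 and 8.82 at withdrawal and at 9.37, 9.35, 9.36 and 9.14 in control. It fell by 0.42 (SE 0.08), or 1.33-fold (adjusted p = 0.0109).

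The catalytic subunit gene Atp6v1a had a difference of -0.11 ± 0.09. The B subunit gene Atp6v1b2, which completes the ATP-binding ring, was above every control on each withdrawal array, at 7.94, 8.09 and 7.99 against 7.61, 7.50, 7.51 and 7.12, and its difference of 0.57 ± 0.17 did not pass (adjusted p = 0.0741). Atp6v1c1 and Atp6v1d, of the peripheral and central stalks, had 0.14 ± 0.10 and 0.06 ± 0.10. The V0 genes Atp6v0a1, Atp6v0d1 and Atp6v0e had -0.20 ± 0.13, -0.00 ± 0.10 and -0.08 ± 0.11, and the accessory subunit gene Atp6ap1 had 0.04 ± 0.09. Subunits of 1 complex therefore had differences from -0.74 to 0.57 in the same glands.

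The calls at withdrawal differed in how far they rested on single arrays. Ctss, Atp6v1h and Atp6v1e1 passed whichever array was left out. Without withdrawal replicate 1, and also without withdrawal replicate 2, Ctss was the sole gene of the 35 still called higher, and the count of 8 became 5 without control replicate 1 or 3 and 3 without control replicate 2 or 4. Centring every array on its median moved the median difference of all genes to -0.12 and left 3 higher, namely Ctss, Ctsa and Man2b1, while the 2 pump genes stayed lower.

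**Figure D2:**
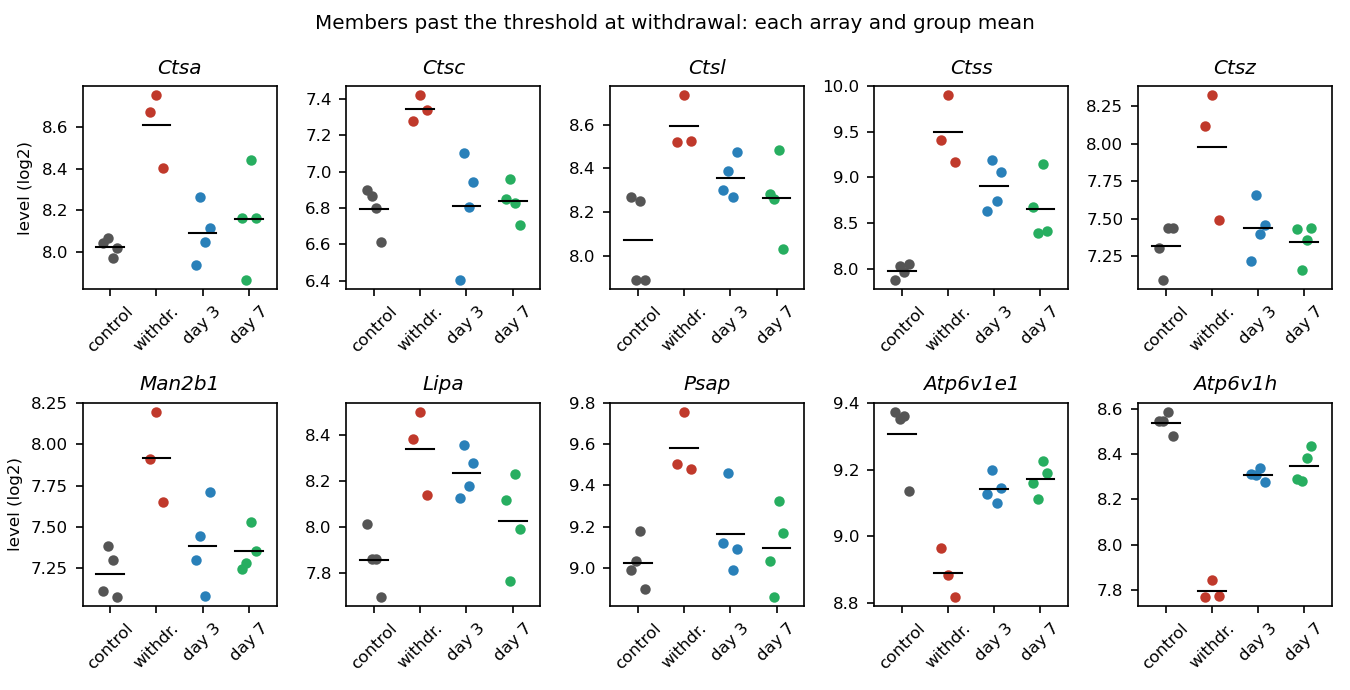
Level (log2, y axis, a separate scale for each gene that does not start at 0) on each array for the 10 lysosomal genes past the threshold at withdrawal, by group (x axis), with a line at the group mean. The 3 withdrawal arrays lie above all 4 control arrays for the 8 hydrolase genes and below them for Atp6v1e1 and Atp6v1h.

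Promoter sequences are shown for 5 of the genes because 2 short motifs bear on which of them share a promoter feature: the palindrome TCACGTGA, core of the element bound by the TFEB family in lysosomal genes and itself an extension of the E-box CACGTG, and GAGGAAGT, a site of the kind bound by the myeloid factor PU.1. RefSeq windows on build GRCm38.p6, from 250 bases before to 50 after the transcription start, matched 32 of the 37 genes with 37 windows; Atp6v1b2, Atp6v1c1, Atp6v1h, Ctsb and Ctsh had none. Both strands were searched, and all TCACGTGA matches also count as CACGTG. The windows below run 5′ to 3′ on the strand of the gene, with TCACGTGA in capitals for Ctsa, Mcoln1 and Atp6v1a, and with the reverse complement of GAGGAAGT in capitals for Ctss and Ctsc.
Ctsa, chr2:164833523-164833822, plus strand: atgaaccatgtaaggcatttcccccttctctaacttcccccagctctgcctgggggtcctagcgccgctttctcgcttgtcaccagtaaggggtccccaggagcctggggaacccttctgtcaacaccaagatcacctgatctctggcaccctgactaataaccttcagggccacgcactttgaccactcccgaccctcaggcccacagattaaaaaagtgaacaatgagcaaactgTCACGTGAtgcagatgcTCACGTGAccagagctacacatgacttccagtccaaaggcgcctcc
Mcoln1, chr8:3500269-3500568, plus strand: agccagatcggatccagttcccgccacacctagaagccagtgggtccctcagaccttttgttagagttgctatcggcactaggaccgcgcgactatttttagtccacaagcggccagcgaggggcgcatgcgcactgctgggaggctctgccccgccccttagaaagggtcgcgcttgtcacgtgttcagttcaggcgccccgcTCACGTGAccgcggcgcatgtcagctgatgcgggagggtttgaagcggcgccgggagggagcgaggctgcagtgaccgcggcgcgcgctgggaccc
Atp6v1a, chr16:44139210-44139509, minus strand: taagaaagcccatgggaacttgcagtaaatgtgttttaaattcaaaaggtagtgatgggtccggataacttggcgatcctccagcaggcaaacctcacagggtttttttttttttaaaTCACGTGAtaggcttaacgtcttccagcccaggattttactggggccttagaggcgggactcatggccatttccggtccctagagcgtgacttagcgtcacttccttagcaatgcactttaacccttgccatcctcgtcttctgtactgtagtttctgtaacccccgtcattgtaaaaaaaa
Ctss, chr3:95526536-95526835, plus strand: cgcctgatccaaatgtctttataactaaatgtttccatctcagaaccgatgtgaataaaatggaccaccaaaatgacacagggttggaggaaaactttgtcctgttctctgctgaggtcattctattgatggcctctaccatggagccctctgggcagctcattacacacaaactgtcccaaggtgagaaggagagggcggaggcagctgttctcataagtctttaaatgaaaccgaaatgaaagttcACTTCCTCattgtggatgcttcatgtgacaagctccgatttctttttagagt
Ctsc, chr7:88277835-88278134, plus strand: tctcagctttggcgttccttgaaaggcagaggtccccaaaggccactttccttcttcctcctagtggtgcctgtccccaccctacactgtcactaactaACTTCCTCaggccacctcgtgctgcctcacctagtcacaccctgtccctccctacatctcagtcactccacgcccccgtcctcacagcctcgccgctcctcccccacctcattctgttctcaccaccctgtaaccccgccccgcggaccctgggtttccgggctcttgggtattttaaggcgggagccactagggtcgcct

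TCACGTGA was found in 7 of the 37 windows (18.9%), against 0.974% of all 32851 windows, and the broader CACGTG in 12 (32.4%), against 7.15%. A longer form of 10 bases, TCACGTGA with G before it and C after it, was in 0 of the 37 windows, against 0.326% of all. With so low a share over all windows, 0 of 37 cannot show whether the list differs in this form. The 7 genes with TCACGTGA were Atp6v0d1, Atp6v0e, Atp6v1a, Ctsa, Ctsd, Gla and Mcoln1. Their withdrawal minus control differences ran from -0.11 to 0.59, with Ctsa the sole one called, whereas 7 of the 23 other measured genes with a window rose and 1 fell. GAGGAAGT lay in 4 windows (10.8%), against 3.2% of all, in Ctss, Ctsc, Gla and Gusb, of which Ctss and Ctsc rose. In Ctss the match began 2 bases before the transcription start. These are matches of letters in a short window and were not tested against the expression values.

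A list of macrophage genes is set beside the lysosomal list, since the comparison asks whether the lysosome as a whole follows the rise of macrophage genes. Of 22 macrophage genes measured, 15 rose, 0 fell and 7 did not pass at withdrawal relative to control, with a median difference of 0.91 against 0.17 for the lysosomal list. Csf1r, the receptor for the growth factor of macrophages, rose by 0.60 and the surface protein Adgre1 by 0.79. The complement gene C1qa rose by 1.01, the lysozyme gene Lyz2 by 1.19, the pore-forming Mpeg1 by 1.77 and the lipid receptor Trem2 by 2.96, with adjusted p-values from 0.000179 to 0.0169 for these 6 genes. The mean level of the 22 genes ran from 5.85 to 6.16 on the withdrawal arrays and reached at most 5.09 on the control arrays. The log2 scale has no true zero for a marker, and the lowest control mean was that of Itgam, the integrin of monocytes and neutrophils, at 1.84. Without withdrawal replicate 2, 9 of the 22 were called.

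The mean level of the 21 hydrolases was 7.75, 7.93 and 7.60 on the withdrawal arrays, with the second the highest, and 7.35 to 7.45 on the control arrays. The second withdrawal array, the second day 3 array and the third day 7 array had the highest mean of their group for the hydrolases and the macrophage genes, and also for the pump genes, the medulla genes and the further hydrolases and membrane proteins described below, so the shared top arrays are not particular to hydrolases and macrophages. The mean level of the pump genes was 7.84, 7.88 and 7.83 at withdrawal and 7.83 to 7.97 in control, so these ranges overlapped. The mean of the 11 cortex genes ran from 8.63 to 8.83 at withdrawal and from 9.31 to 9.43 in control. The part of a changed share of macrophages or cortex cells in the differences of the lysosomal genes was not tested.

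**Figure D3:**
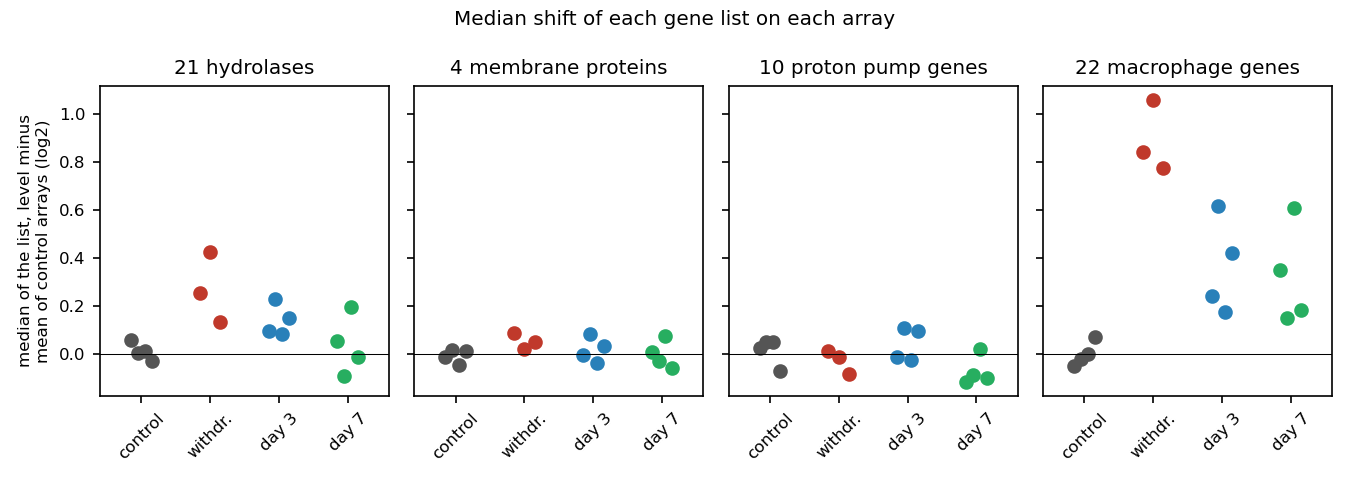
Median over a list of the level minus the control mean (log2, y axis) on each array, by group (x axis), for 21 hydrolases, 4 membrane proteins, 10 proton pump genes and 22 macrophage genes. At withdrawal the 3 arrays lie at 0.25, 0.42 and 0.13 for the hydrolases and at 0.84, 1.06 and 0.77 for the macrophage genes, while the pump arrays lie at 0.01, -0.01 and -0.08.

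Other cell types were read through their own markers. At withdrawal relative to control 3 of 10 medulla genes rose, namely Ddc, Cyb561 and Syt1 (median difference 0.44), 0 of 9 fibroblast and capsule genes passed (median 0.33), and 1 of 8 endothelial genes, Kdr, fell (median -0.36). Of 6 T cell genes Cd4 rose, and 0 passed among 7 neutrophil, 3 B cell, 6 mast cell and 5 adipocyte genes. The withdrawal mean was the highest of the 4 groups for 9 of 9 fibroblast and capsule genes, 8 of 10 medulla genes and 19 of 22 macrophage genes. It was the highest for 0 of 8 endothelial genes and 1 of 11 cortex genes. A peak at withdrawal was therefore not particular to the hydrolases. The part of these cell types in the lysosomal differences was not tested either.

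Lysosomal genes outside the 37 also went in both directions at withdrawal, but not along the same roles. Their lists were chosen with earlier results known, and over all genes 2.49% were called higher and 1.81% lower. Of 25 further hydrolases measured, 2 rose and 1 fell: Acp5, the acid phosphatase of osteoclasts and macrophages, rose by 1.44 ± 0.32 (adjusted p = 0.0189), the carboxypeptidase Prcp rose by 0.62 ± 0.13, and the cathepsin Ctsf fell by 0.46 (SE 0.11). Their median difference was 0.14. Of 22 further membrane proteins, 4 rose and 3 fell. The 4 that rose were Cd68, the macrophage counterpart of the Lamp proteins (2.29 ± 0.30), the metal transporter Slc11a1 (1.85 ± 0.27), Laptm5, a protein of blood cell lysosomes (1.33 ± 0.19), and the peptide transporter Slc15a3 (1.00 ± 0.21). The 3 that fell were Laptm4b by 0.73, the acetyltransferase Hgsnat by 0.66 and Tmem192 by 0.48.

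Among pump genes outside the 37, only Atp6v0d2 passed. This gene, of the V0 d subunit of osteoclasts and some macrophages, stood at 7.05, 8.01 and 6.79 at withdrawal, against 1.09, 2.07, 1.35 and 1.55 in control, near the floor of the arrays. It rose (adjusted p = 0.000844), and since the floor can hide part of the change its measured difference of 5.77 ± 0.81 may be a lower limit. For its widely expressed counterpart Atp6v0d1 the difference was -0.00, with an interval from -0.23 to 0.22. The other 16 pump genes of that list did not pass, and the median of all 17 was -0.07. Gpnmb, a membrane glycoprotein of lipid-laden macrophages, likewise had a control mean near the floor, 1.57, and a measured difference of 7.63 ± 0.82 (adjusted p = 0.000118). This too may be a lower limit, as may the later differences of both genes from control.

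Genes that sort enzymes to the lysosome or control its making were also counted at withdrawal. Of the sorting genes 11.8% passed, of the TFEB family and mTORC1 genes 13.3% and of the autophagy genes 6.67%, against 4.3% of all genes. These shares rest on very few genes per list. Of 17 sorting genes, the adaptor gene Gga2 rose by 0.54 ± 0.09 (adjusted p = 0.00319), though its most variable probe set gave 0.19 with an adjusted p of 0.704, and Igf2r, the large mannose 6-phosphate receptor, fell by 0.35 (SE 0.08, adjusted p = 0.0224), with a median of -0.01. Of 15 genes of the TFEB family and its mTORC1 controls, Mitf rose by 0.41 ± 0.11 (adjusted p = 0.0475) and Tfec by 0.79 ± 0.18 (adjusted p = 0.0211). Tfec started from a control mean of 1.57 near the floor, so its difference may be a lower limit. Mitf passed in 2 of the 15 fits that left out 1 array, with an adjusted p of up to 0.163. Tfe3 had a difference of 0.09 ± 0.16. Of 15 autophagy genes 1 passed, Map1lc3a, a coat protein of autophagosomes, at -0.41 ± 0.11 (adjusted p = 0.0491). It passed in 0 of the 15 fits that left out 1 array, with adjusted p-values from 0.0535 to 0.197. The median of the list was -0.13. Of the 16 genes called in these 6 lists, 7 passed whichever array was left out, and the other 9, among them Acp5 and Prcp without withdrawal replicate 2, did not.

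**Figure D4:**
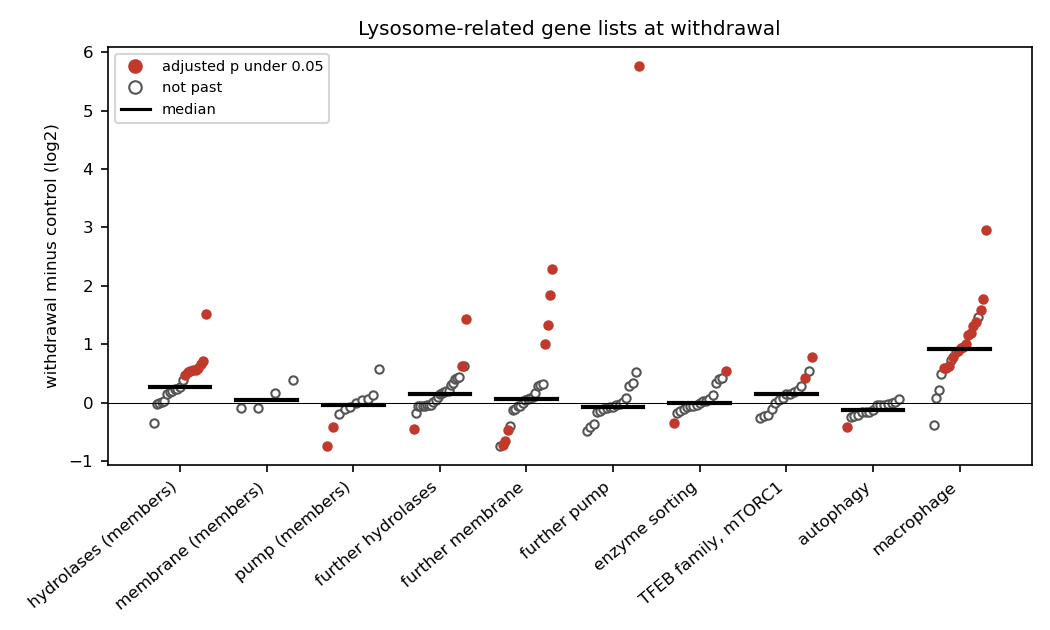
Withdrawal minus control (log2, y axis) for each gene of the lysosomal lists and of the macrophage list (x axis), with red points for an adjusted p under 0.05 and a bar at the list's median. The medians are 0.27 for the 21 hydrolases, 0.04 for the 4 membrane proteins, -0.04 for the 10 pump genes and 0.91 for the 22 macrophage genes, and the highest point, at 5.77, is Atp6v0d2.

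At day 3, 16 of the 21 hydrolases had a lower mean than at withdrawal, against 10984 of all 21439 genes. Few of the hydrolase differences passed. Of the 35 genes 1 was higher (Atp6v1h) and 1 lower (Ctsa) at day 3 than at withdrawal, and the other 33 did not pass. Over all genes, 1.37% were called higher and 0.886% lower. The median difference of the 35 genes was -0.08, with 9 of them at an unadjusted p under 0.05, against 13.9% of all genes. Every day 3 array was above every withdrawal array for 2 genes and below for 5, against 6.39% and 5.73% of all genes. Ctsa stood at 7.93, 8.27, 8.05 and 8.11 at day 3, below all 3 withdrawal arrays, and fell by 0.52 (SE 0.13, adjusted p = 0.0473). Leaving out 1 array at a time, this call held in 4 of 15 fits, those without withdrawal replicate 3, day 3 replicate 2, day 7 replicate 2 or day 7 replicate 3, and the adjusted p reached 0.193 without withdrawal replicate 2. Differences that did not pass included Ctsc at -0.53 ± 0.14 (adjusted p = 0.0578), Man2b1 at -0.54 ± 0.15 (adjusted p = 0.0928), Ctsz at -0.54 ± 0.17 (adjusted p = 0.127), Ctss at -0.58 ± 0.20 (adjusted p = 0.168) and Psap at -0.42 ± 0.13 (adjusted p = 0.139). Lipa and Lgmn had -0.10 ± 0.12 and -0.08 ± 0.14.

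Atp6v1h was at 8.31, 8.31, 8.34 and 8.28 on the day 3 arrays, all above withdrawal and all below control. It rose by 0.51 ± 0.08 relative to withdrawal (adjusted p = 0.00269), a call that held without any single array. The withdrawal arrays also served the comparison with control, so a move back from withdrawal is not independent of that comparison. This limit covers the other lysosomal genes and the macrophage genes too, at day 3 and at day 7. Atp6v1e1 stood at 9.13, 9.20, 9.10 and 9.14, above every withdrawal array, with a difference of 0.25 ± 0.08 that did not pass (adjusted p = 0.158). Among the macrophage genes 8 of 22 fell between withdrawal and day 3 and 0 rose, with a median of -0.58. Adgre1 fell by 0.72, Csf1r by 0.66, C1qa by 0.75, Mpeg1 by 0.98 and Trem2 by 1.42, while Lyz2 (-0.31 ± 0.18), Cd68 (-0.98 ± 0.30) and Gpnmb (-0.92 ± 0.82) did not pass. Without withdrawal replicate 1, 2 or 3, the count of 8 became 2, 0 or 4, and without day 3 replicate 1, 3 or 4 it became 3, 3 or 5. Of the cortex genes 6 of 11 rose.

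Among further lysosomal genes at day 3 relative to withdrawal, Mfsd8, a lysosomal membrane channel, rose by 0.97 ± 0.20 (adjusted p = 0.0225), Hgsnat by 0.55 ± 0.12, Laptm4b by 0.50 ± 0.11 and Igf2r by 0.37 ± 0.08. Slc11a1 fell by 1.16 (SE 0.27) and Laptm5 by 0.86 (SE 0.19). Hgsnat, Laptm4b and Igf2r had fallen at withdrawal relative to control, and Slc11a1 and Laptm5 had risen there, but the withdrawal arrays are shared by both comparisons. Of these 6 calls 0 held with every array left out in turn, the adjusted p of each reaching 0.0916 to 0.188 without a withdrawal array.

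By day 7 the list again had 1 gene higher and 1 lower than at withdrawal, with 33 not passing and a median difference of -0.16. Over all genes 0.98% were called higher and 0.905% lower, and 15 of the 35 genes had an unadjusted p under 0.05, against 13.5% of all genes. Every day 7 array was above every withdrawal array for 3 genes and below for 11, against 6.46% and 5.89% of all genes. Ctss stood at 8.68, 8.39, 9.15 and 8.42 at day 7, with the third array close to the lowest withdrawal array, and fell by 0.84 (SE 0.20, adjusted p = 0.0443). This call also held in 4 of the 15 fits, those without withdrawal replicate 3, day 3 replicate 1, day 3 replicate 2 or day 7 replicate 3, and the adjusted p reached 0.195 without withdrawal replicate 2. The next smallest adjusted p-values among the hydrolases were those of Ctsz (-0.63 ± 0.17, adjusted p = 0.0752), Ctsc (-0.51 ± 0.14, adjusted p = 0.0757), Man2b1 (-0.57 ± 0.15, adjusted p = 0.0779), Psap (-0.48 ± 0.13, adjusted p = 0.0833), Lgmn (-0.50 ± 0.14, adjusted p = 0.0916) and Ctsa (-0.45 ± 0.13, adjusted p = 0.0928). In a fit that lets the spread vary with the level and limits outlying genes, 7 of the 35 were called lower.

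Atp6v1h, at 8.29, 8.28, 8.38 and 8.43 on the day 7 arrays, rose by 0.55 ± 0.08 relative to withdrawal (adjusted p = 0.00175), also whichever array was left out. Atp6v1e1 had 0.28 ± 0.08 (adjusted p = 0.113), and Atp6v1b2 -0.44 ± 0.17 (adjusted p = 0.234) with every day 7 array below every withdrawal array. Of the macrophage genes 8 of 22 fell, with a median of -0.57. Adgre1 fell by 0.69, Mpeg1 by 1.08 and Trem2 by 2.15, and Cd68, which is in a separate list, by 1.35. Csf1r fell by 0.53 with an adjusted p that rounds to 0.05. C1qa (-0.70 ± 0.18), Lyz2 (-0.58 ± 0.18) and Gpnmb (-2.35 ± 0.82) did not pass. Without withdrawal replicate 1 or 2 the count of 8 became 4 or 1, and without day 7 replicate 1, 2 or 4 it became 3, 3 or 4. Of the cortex genes 7 of 11 rose. Among further lysosomal genes Ctsf rose by 0.49 ± 0.11 and Laptm4b by 0.48 ± 0.11, while Slc11a1 fell by 1.19, Laptm5 by 0.92 and Gga2 by 0.42. Of the 6 calls at day 7 in these lists, Cd68 included, 0 held with every array left out in turn and 0 in every alternative, and the most variable probe set of Gga2 gave -0.20 (adjusted p = 0.746).

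Against the untreated controls, 0 of the 35 genes passed at day 3, with 6 at an unadjusted p under 0.05 against 10% of all genes, and 0 passed at day 7, with 2 at an unadjusted p under 0.05 against 5.95% of all genes. Few genes of the whole table passed in these comparisons: 0.0886% were higher and 0.042% lower at day 3, and 0.014% were higher and 0.00466% lower at day 7. At day 3 the arrays were all above control for 3 of the 35 genes and all below for 1, against 2.75% and 2.45% of all genes, and at day 7 for 1 and 1, against 1.75% and 1.4%. Among the 35 genes the largest differences from control belonged to Ctss, which was above every control array at both times. On the day 3 arrays it stood at 8.64, 9.20, 8.74 and 9.07, a difference of 0.93 ± 0.18 from control (adjusted p = 0.0625), and at day 7 the difference was 0.68 ± 0.18 (adjusted p = 0.558). Lipa also had every day 3 array above every control array, at 0.38 ± 0.11 (adjusted p = 0.235), as had Ctsl at 0.28 ± 0.12 (adjusted p = 0.429). For Ctsl the groups almost touched, since the lowest day 3 array and the highest control array both round to 8.27.

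Atp6v1h was below every control array at both times, with -0.23 ± 0.07 at day 3 (adjusted p = 0.237) and -0.19 ± 0.07 at day 7 (adjusted p = 0.77). The median difference of the 35 genes from control was 0.10 at day 3 and 0.02 at day 7, and that of the 22 macrophage genes was 0.31 and 0.26, with 0 called at either time. Of these 22 genes, 12 had an unadjusted p under 0.05 at day 3 and 8 at day 7, against 10% and 5.95% of all genes. All day 3 arrays were above control for 8 of the 22 and all day 7 arrays for 4, against 2.75% and 1.75% of all genes. Outside the 37 genes, Atp6v0d2 was higher at day 3 than in control by 4.61 ± 0.75 (adjusted p = 0.0428, and up to 0.122 when arrays were left out, without day 3 replicate 4), with the arrays at 5.86, 7.07, 5.24 and 6.33. At day 7 it stood at 4.88, 1.67, 6.78 and 4.86, so that the second array was as low as the controls. Gpnmb had the same array lowest at day 7, at 3.78 against 7.19 to 8.98 on the others, and it was higher than control by 5.28 ± 0.76 at day 7 (adjusted p = 0.0362, passing in 2 of the 15 fits that left out 1 array, with up to 0.192 without control replicate 4) and by 6.71 ± 0.76 at day 3 (adjusted p = 0.00307).

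Between day 7 and day 3, 0 of the 35 genes passed, with 1 at an unadjusted p under 0.05, and of all genes 0% passed in either direction, with 7.07% at an unadjusted p under 0.05. The groups overlapped for all 35 genes, while 1.81% of all genes were higher and 1.74% lower without overlap. The 1 gene was Lgmn, at 7.89, 7.73, 8.17 and 7.98 on the day 7 arrays and 8.06, 8.53, 8.30 and 8.52 on the day 3 arrays, which overlap, with a difference of -0.41 ± 0.13 (adjusted p = 0.487). For Lamp2 the difference was -0.03, with an interval from -0.18 to 0.12, and for Atp6v1h 0.04, from -0.11 to 0.19.

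**Figure D5:**
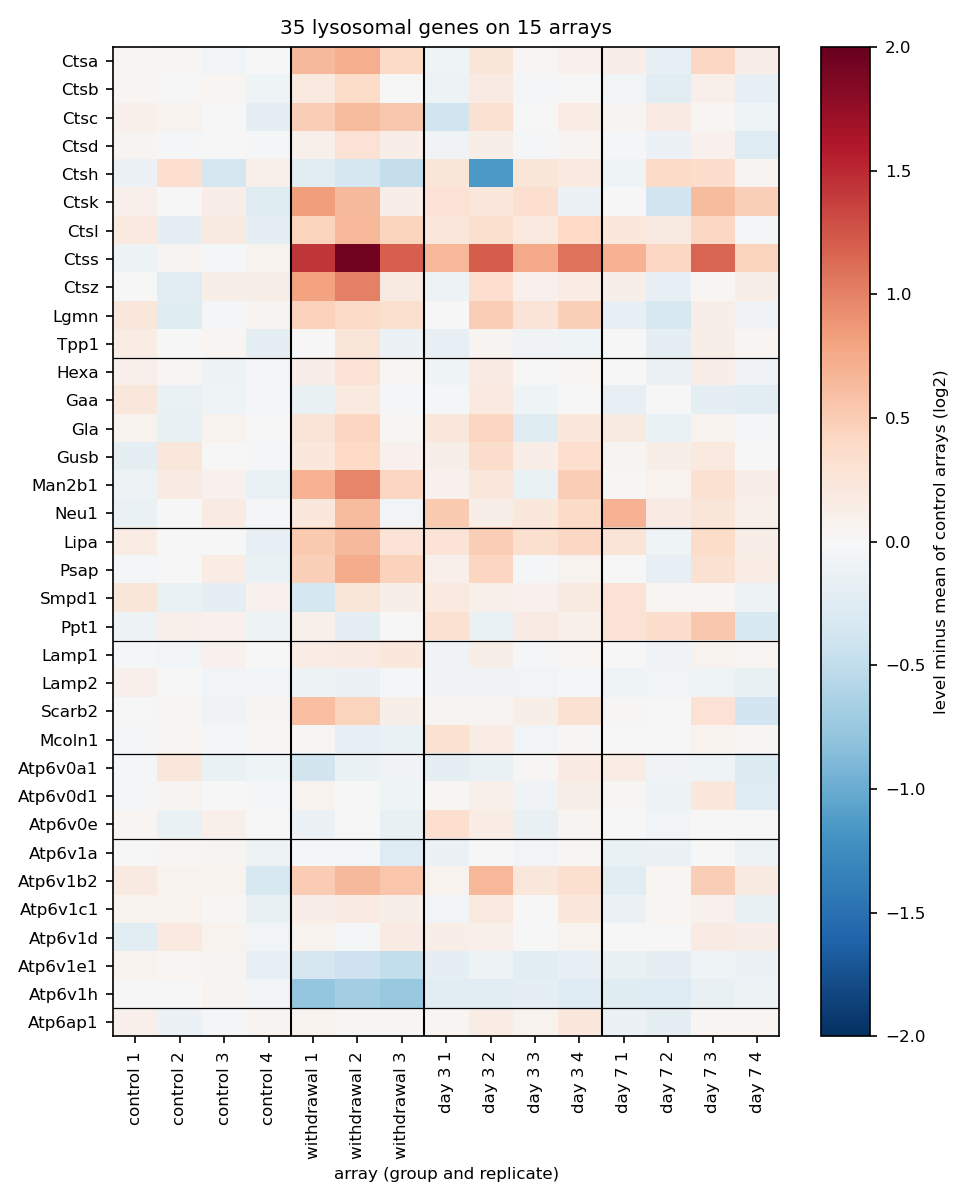
Level minus the mean of the control arrays (log2, colour) for the 35 lysosomal genes (rows, grouped by role) on the 15 arrays (columns, by group). Ctss is the darkest red row on the withdrawal arrays and stays red on all 8 later arrays, and Atp6v1h is the darkest blue row at withdrawal and stays pale blue on them.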

How the data were processed

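RNA of 15 samples of whole adrenals was hybridised to one-colour Affymetrix arrays, and the titles do not say how many glands each sample held. The deposited values are log2 levels that the authors made by robust multi-array average (RMA) with oligo, according to the submitters' processing notes; version and build, not given in the sources used here, are unknown. Of 32736 probe sets, 22399 carried 1 gene symbol and were used, 1607 carried several and 8730 none. The probe set with the highest mean was kept per gene. Arrays have no read depth; their number limits the precision, and p-values measure the spread between replicates whose separate animals only the titles imply.

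Differences were tested with limma 3.58.1 (R 4.3.3, lmFit and eBayes) in 1 model of 4 groups and 6 contrasts, adjusted by Benjamini-Hochberg over 21439 genes, threshold 0.05. The procedure was also run on simulated data with planted differences. Its recovery of them is not reported here, so this run gives no measure of how often a true difference was missed. Alternatives were median centring, further quantile normalization, genes above the median level (2.44), the most variable probe set, eBayes with trend and robust options, a replicate block, and leaving out each array.

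The genes and lists were chosen with earlier results of these data known. Values per array are given for lysosomal genes past the threshold at withdrawal or, in a role class with none, the one with the highest mean, and for a few others chosen after their values were seen (Atp6v1b2, Lgmn, Atp6v0d2). Of other lists, up to 4 genes past the threshold with the largest change are named per comparison, besides 8 macrophage genes and the cortex genes Cyp11b1 and Star. Tfe3, Itgam, Cyp11b2, Ddc, Cyb561, Syt1, Kdr and Cd4 were chosen after their values were seen.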

Additional observations from a re-analysis of the deposited data

Results flagged for a closer look

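Among 135 groups of 4 arrays (the 35 lysosomal genes with 8 macrophage genes, Cyp11b1 and Star, in control, day 3 and day 7), 3 held an array set apart from the rest, with a gap to the nearest array, as a share of the group's range, above Dixon's 95% critical value for 4 samples; chance alone sets apart about 1 in 20 groups. Ctsh on day 3 replicate 2 stood at 6.38, with the nearest array at 7.73 (gap 0.962 of the range). Atp6v1e1 on control replicate 4 stood at 9.14, with the nearest at 9.35 (0.904). Atp6v0e on day 7 replicate 2 stood at 8.16, with the nearest at 8.21 (0.972), a gap that is small in log2 units because the other arrays almost coincided.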

How the results depend on the processing

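In every alternative and with any array left out, the 10 genes called at withdrawal against control kept their direction. Their withdrawal and control arrays did not overlap, so leaving out 1 array could not have turned the direction. Of the 10, 3 passed in every fit that left out 1 array and 4 in every alternative. The count of lysosomal genes higher at withdrawal, 8, became 3 with median centring and 2 with a replicate block, and ran from 1 to 9 when arrays were left out; the 2 lower were called throughout. For day 3 against withdrawal, 1 higher became 2 with trend and robust options, and 1 lower became 0 with centring or the block and 2 with quantile normalization, with genes above the median level or with trend and robust options, and 0 to 2 without an array. For day 7 against withdrawal, 1 higher became 2 with centring or with trend and robust options, and 1 lower became 0 with centring or the block, 2 with quantile normalization, 5 with genes above the median level and 7 with trend and robust options, and 0 to 3 without an array. Day 3 against control gave 1 higher with genes above the median level or with trend and robust options, and 0 to 1 without an array. The cause was not tested. Over all genes, those higher at withdrawal went to 341 with centring and 300 with the block from 534, and those lower to 853 and 244 from 387. At day 3 against withdrawal the block gave 166 higher and 91 lower, against 293 and 190. At day 7 against withdrawal, 210 higher became 391 with centring, 329 above the median level and 133 with the block, and 194 lower became 293 above the median level and 88 with the block. At day 3 against control, 19 higher became 12 with quantile normalization, 45 above the median level, 52 with trend and robust options and 3 with the block, and 9 lower became 35 with centring, 27 above the median level, 39 with trend and robust options and 1 with the block. At day 7 against control, 3 higher became 1 with trend and robust options and 0 with the block, and 1 lower became 0 with the block; at day 7 against day 3, 3 were lower above the median level. Same-numbered arrays did not deviate together (correlation from -0.14 to 0.06, 0 of 21 pairs over 0.1), so the arrays share only a number and the block is not a pairing. Left out 1 at a time, arrays gave 243 to 558 genes higher and 216 to 391 lower at withdrawal, 130 to 291 and 79 to 194 at day 3 against withdrawal, 125 to 214 and 75 to 226 at day 7 against withdrawal, 4 to 34 and 2 to 13 at day 3 against control, 0 to 4 and 0 to 5 at day 7 against control, and 0 to 1 and 0 to 7 at day 7 against day 3.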
